A study of Mus musculus with 36 samples.

Results

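Lungs of 3 male mice treated with 9527+oil, the dispersant Corexit 9527 mixed with MC252 crude oil, were compared with lungs of 3 male mice given saline. The mice were those of the male count table whose labels read 9527+oil (mice 16, 17 and 18) and saline (mice 1, 2 and 3), which makes 6 of the 36 mice of the series. Every gene row of that table was taken, and 14954 of its 18295 rows passed the filter on low counts and were tested. The study asked how oil and dispersants alter gene expression in the lung, and 3 mice of each sex received each of 6 treatments, among them oil alone and Corexit 9527 alone. All of the mice were C57BL/6 wild type, bought at 7 weeks of age and 8 weeks old at the first dose. The treated males were dosed with 9527+oil on day 0, day 7 and day 13 and their lungs were taken on day 14, and the control males were dosed with saline on the same days. A dose was 50 µL of a saline-accommodated fraction (SAF) made from 1 part of oil and 0.5 parts of dispersant in 20 parts of buffered saline, then diluted 10-fold (0.1 SAF). The paper states that the mixtures with dispersant did not separate readily and were used whole, whereas of oil alone the saline phase was taken. It gives the route as oropharyngeal aspiration and the labels give intratracheal instillation. RNA came from the left lung as a whole, which mixes the airway, alveolar, vascular and immune cells of the organ.

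Material that reaches the air spaces meets alveolar macrophages first, which take up particles and lipid through scavenger receptors and call neutrophils and monocytes from the blood. Neutrophils bring granule proteases and the calprotectin subunits S100a8 and S100a9, and the epithelium adds mucins and acute phase proteins. Crude oil carries polycyclic aromatic hydrocarbons, ligands of the aryl hydrocarbon receptor (AhR), which turns on the cytochrome P450 genes Cyp1a1 and Cyp1b1. Dividing cells express cyclins, kinesins and checkpoint kinases, and a rise of these genes in lung accompanies repair or the entry of dividing immune cells.

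The 6 libraries held about 18121500 to 25889200 counts, and mitochondrial genes took 5.27% to 7.68% of them, the highest share being that of 9527+oil mouse 16. Levels are given as CPM, the counts of a gene per 1000000 counts of the library after scaling by the TMM method over the 18 male mice. Lung markers were at high levels in all 6 mice. Sftpc, a surfactant protein of alveolar type 2 cells, ran from 9027 to 13439 CPM, and Scgb1a1, the secretory protein of club cells, from 15657 to 21147 CPM. Foxj1, which marks ciliated cells, was at 104 to 198 CPM and Pecam1, of endothelium, at 814 to 1154 CPM. The counts of any 2 of the 6 mice differed far beyond counting noise, with a chi-square per gene of at least 12.5 over 15 pairs, so each library was counted as its own mouse.

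Of 14954 genes 1 passed the adjusted p threshold of 0.05 by the edgeR quasi-likelihood F-test (0.00669%), the pseudogene Gm13835, which was lower with 9527+oil. Without adjustment 829 genes had a p under 0.05 (5.54%), of which 530 were higher (3.54%) and 299 lower (2%) with 9527+oil. All 3 treated mice lay above all 3 saline mice for 885 genes (5.92%) and below them for 884 (5.91%). The median log2 fold change over all genes was -0.0037, and 49.4% of the genes had one above 0. The count at the adjusted threshold rested on the tool and on single mice. It was 25 with DESeq2, of which 20 were higher, and 54 without 9527+oil mouse 16, of which 52 were higher. It was 0 without saline mouse 3 and 0 without 9527+oil mouse 17, and 2 without saline mouse 1 and 2 without 9527+oil mouse 18. The genes below other than Gm13835 missed the adjusted threshold by the edgeR test, and they are described by their values in each mouse.

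Gm13835 (ENSMUSG00000086922) is a processed pseudogene, a copy of a spliced messenger RNA set back into the genome, at chr6:31141979-31142663 on the minus strand of GRCm38. The saline mice had 241, 105 and 227 counts, or 12.0, 5.51 and 10.3 CPM. The 9527+oil mice had 0, 1 and 0 counts. Saline mice therefore had many counts in every library and treated mice none or 1. The log2 fold change was -8.79 ± 0.67 (SE), with an adjusted p of 0.0109 by the edgeR quasi-likelihood F-test, and it depends on the prior count that the fit adds to a group near 0. Summed over the mice, 573 counts in saline stood against 1 with 9527+oil, a ratio of 624 after scaling to library size, with a 95% interval of 111 to 24675 that covers counting error only. The whole sequence of 685 bases was found in a transcript of Psma3, a subunit of the proteasome core, and all 655 of its words of 31 bases, the length Salmon indexes by default, occur in Psma3. A stretch of the pseudogene with the matching place in Psma3 shows why the counts of the 2 genes cannot be separated. The capitals mark the first word of 31 bases, and the sequence is that of bases 143 to 202 of the pseudogene and of bases 207 to 266 of the Psma3 transcript.
Gm13835 and Psma3: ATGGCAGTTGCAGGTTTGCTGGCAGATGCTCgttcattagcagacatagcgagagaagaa
Psma3 itself had 59.3, 68.8 and 73.8 CPM in saline mice and 45.4, 69.8 and 70.0 CPM in 9527+oil mice. The groups overlapped, with a log2 fold change of -0.13 ± 0.17 and an adjusted p of 0.929 by the edgeR quasi-likelihood F-test. The sum of the genes was 71.3, 74.3 and 84.0 CPM with saline against 45.4, 69.8 and 70.0 CPM with 9527+oil. Over the other 12 male mice Gm13835 ran from 0 to 18.0 CPM, 6 of them below all saline mice, so a low value was not particular to 9527+oil. Gm6851, another processed pseudogene, was looked at after its values were seen. It had 0.796, 2.52 and 3.07 CPM in saline mice and 0 in each treated mouse, and 95.3% of its words of 31 bases occur in the prolyl isomerase gene Pin4. How the estimate split reads between such copies was not tested.

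Prg4 had the smallest p among the genes that were higher with 9527+oil. It encodes lubricin, the mucin-like glycoprotein that coats joint and pleural surfaces and is made in the lung by mesothelium, and it lies at chr1:150449412-150466165 on the minus strand. Saline mice had 2.64, 2.47 and 2.80 CPM. The 9527+oil mice had 21.7, 10.3 and 12.2 CPM. Every treated mouse was thus well above every saline mouse, with the saline mice close together and mouse 16 the highest. The mean was 14.7 ± 6.08 CPM (SD, n = 3) against 2.63 ± 0.167 CPM, a 5.58-fold difference, and the log2 fold change was 2.48 ± 0.30. The adjusted p was 0.196 by the edgeR quasi-likelihood F-test and 3.7e-11 in DESeq2. Over the alternatives the log2 fold change ran from 2.09 to 2.68 and the adjusted p from 3.7e-11 to 0.998, with Prg4 past the threshold in 2 of 12. All 12 male mice of the other 4 treatments were also above all saline mice, at 3.54 to 17.7 CPM, as the plot of single genes by treatment shows. Of 15 mesothelial markers tested, Prg4 among them, 5 had a log2 fold change above 0 and the median was -0.06. The gene whose level followed that of Prg4 most closely over the 18 male mice was Atp6v1g2, a subunit of the proton pump of vesicles (r = 0.81), which had 8.85, 8.502 and 9.26 CPM with saline against 13.4, 11.6 and 12.1 CPM with 9527+oil.

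**Figure D1:**
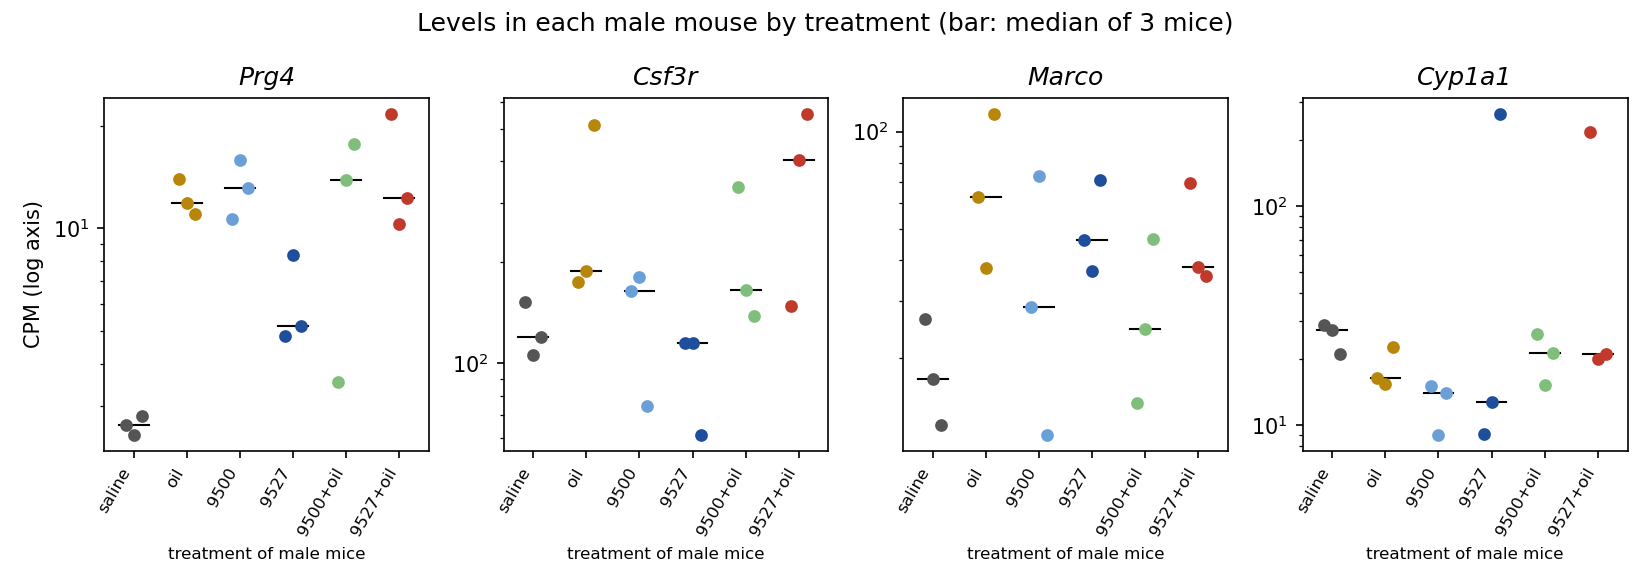
Level of Prg4, Csf3r, Marco and Cyp1a1 in each of the 18 male mice, in CPM on a log axis, by treatment, with a bar at the median of 3 mice. The 3 saline mice are below every other mouse for Prg4, while for Csf3r and Cyp1a1 the 9527+oil mice spread from the saline level to far above it.

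After Prg4, 14 further genes were named as higher in every 9527+oil mouse, in the order of p. Cd300ld, an activating receptor of myeloid cells, had 20.5, 17.3 and 19.96 CPM with saline and 31.8, 36.6 and 51.1 CPM with 9527+oil, a log2 fold change of 1.04 ± 0.18. Selplg, the ligand by which leukocytes roll on P-selectin, had 134, 111 and 117 CPM against 172, 202 and 253 CPM (0.78 ± 0.15). In both genes the lowest treated mouse was mouse 16. Ccl6, a chemokine of macrophages, stood at 157, 139 and 164 CPM with saline and 201, 251 and 284 CPM with 9527+oil (0.67 ± 0.14). Cd68, a lysosomal glycoprotein of macrophages, had 92.2, 80.7 and 82.3 CPM against 144, 109 and 122 CPM (0.55 ± 0.12). Here mouse 16 was the highest instead of the lowest. Padi4, the enzyme that citrullinates histones in neutrophils, was at 6.61, 5.35 and 5.15 CPM with saline and 8.09, 18.2 and 17.8 CPM with 9527+oil (1.36 ± 0.30). Il1f9, a cytokine of the interleukin 1 family, was at 4.38, 4.20 and 4.88 CPM against 6.61, 13.5 and 18.7 CPM (1.52 ± 0.34). For both, mouse 16 lay just above the saline mice and the other treated mice far above them. Apobr, a receptor for lipoproteins on macrophages, had a log2 fold change of 0.80 ± 0.16, and Evi2b, a membrane protein of leukocytes, one of 0.82 ± 0.18. Tpra1 (1.01 ± 0.18), Stambp (0.76 ± 0.15), Rnf149 (0.52 ± 0.11), Grina (0.62 ± 0.14), Xylt1 (0.67 ± 0.15) and Cntfr (0.72 ± 0.16) completed the list of 15 genes. All 14 genes after Prg4 had an adjusted p of 0.885 by the edgeR quasi-likelihood F-test. DESeq2 gave an adjusted p of 0.00042 for Cd300ld, 0.00125 for Selplg and 0.00576 for Ccl6. For the 15 genes a median of 10 of the 12 mice of other treatments was also above all saline mice, and over all 885 genes higher without overlap the median was 8 of 12.

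Neutrophil genes were higher in 9527+oil mice 17 and 18 and not in mouse 16. Of 26 listed markers 20 were tested, and 18 of these had a log2 fold change above 0, with 13 higher and 1 lower at an unadjusted p under 0.05, against 3.54% higher over all genes. The median log2 fold change of the list was 1.37, and over all genes it was -0.0037. A score was computed for each mouse as the median over the list of log2(CPM + 0.1) minus the mean of the saline mice. The score was -0.09, 0.04 and 0.03 in saline mice and -0.60, 1.47 and 1.98 in 9527+oil mice. Mice 17 and 18 thus stood far above the saline mice and mouse 16 below them. In mice 17 and 18 each, 18 of 20 genes lay above all saline mice, while in mouse 16 only 3 did and 12 lay below all of them. Of the list 3 genes did not overlap between the groups and were higher, where 5.92% of all genes did so. In bulk RNA, more neutrophils and more neutrophil RNA per cell cannot be told apart.

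Csf3r, the receptor for granulocyte colony-stimulating factor that sets neutrophil output and survival, lies at chr4:126024550-126044440 on the plus strand. It had 152, 106 and 120 CPM with saline and 149, 403 and 553 CPM with 9527+oil. Mouse 16 was within the saline range and the other treated mice were above it. Of its words of 31 bases 23.1% occur in other genes, so its counts are uncertain. The log2 fold change was 1.54 ± 0.40, with an adjusted p of 0.885 by the edgeR quasi-likelihood F-test. S100a8, a subunit of calprotectin, had 33.2, 41.7 and 46.7 CPM with saline against 24.1, 205 and 253 CPM with 9527+oil (log2 fold change 1.98 ± 0.67). Cxcr2, the receptor for neutrophil-attracting chemokines, had 24.4, 25.8 and 26.2 CPM against 16.8, 80.8 and 124 CPM (1.53 ± 0.56). For these genes mouse 16 was the lowest of all 6 mice. Mmp8, the neutrophil collagenase, followed the same order with 7.76, 11.3 and 12.0 CPM in saline mice and 5.22, 43.0 and 55.8 CPM in treated mice (1.74 ± 0.67). Mmp9, the gelatinase stored in neutrophil granules, had 37.3, 34.4 and 32.9 CPM with saline against 37.5, 75.6 and 133 CPM (1.23 ± 0.37). Lrg1, a glycoprotein of neutrophil granules and of the acute phase, had 87.2, 92.8 and 59.5 CPM with saline and 103, 147 and 128 CPM with 9527+oil (0.66 ± 0.19). Mmp9 and Lrg1 were 2 of the 3 genes without overlap. Ly6g, the antigen by which mouse neutrophils are sorted, was at 0.348, 0.577 and 0.723 CPM with saline and 0.130, 2.31 and 2.47 CPM with 9527+oil, so mouse 16 was the lowest and mice 17 and 18 were above all saline mice. The list's median stayed above 0 with any mouse left out, from 0.82 without mouse 18 to 1.75 without mouse 16. Without mouse 16, 17 of the 20 genes passed an unadjusted p of 0.05, where 983 of all 15109 genes did, and 11 passed the adjusted threshold, where 54 of all genes did, among them Csf3r (1.92 ± 0.18, adjusted p 0.00945) and S100a8 (2.49 ± 0.15, adjusted p 0.00236). The number higher at an unadjusted p under 0.05 fell from 13 to 4 without mouse 18, to 7 without mouse 17 and to 6 without any one saline mouse. The share of mitochondrial counts was 7.68% in mouse 16 and 5.40% and 5.70% in mice 17 and 18, and its part in the result was not tested.

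**Figure D2:**
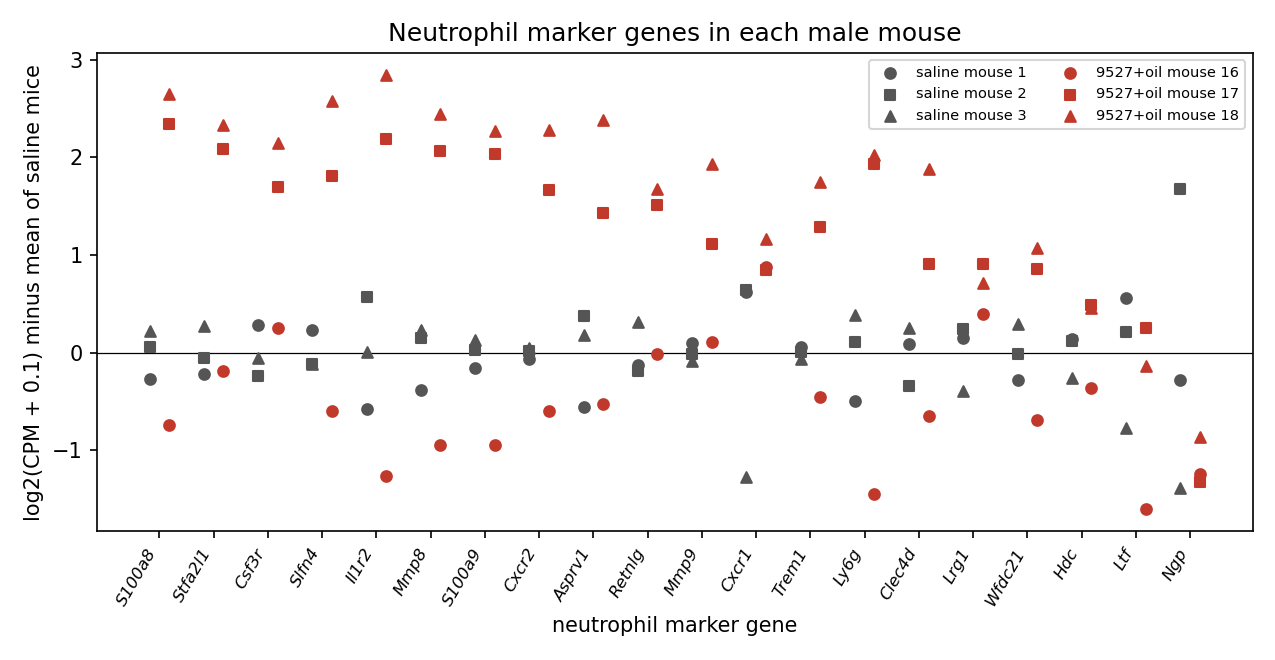
Level of the 20 tested neutrophil marker genes in each of the 6 male mice as log2(CPM + 0.1) minus the mean of the saline mice, with saline mice in grey and 9527+oil mice in red. The genes are ordered by the mean of the 9527+oil mice on that scale. Mice 17 and 18 lie above the saline mice for 18 of the 20 genes, and mouse 16 lies below all saline mice for 12.

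Over the 18 male mice the level of Csf3r followed most closely that of H2-Q10, a class I histocompatibility gene (r = 0.98), Trpm2, a cation channel of phagocytes (r = 0.96), Mmp9 (r = 0.95) and Cxcr2 (r = 0.95). These are correlations over mice of 6 treatments and are given as a description. H2-Q10 had 20.5, 19.4 and 20.5 CPM with saline and 23.8, 42.6 and 51.0 CPM with 9527+oil. The same doubt holds for H2-Q10, which shares 30.3% of its words of 31 bases. Among the other groups the 3 oil mice had neutrophil scores of 0.17 to 1.45 and the 3 mice treated with 9500+oil of -0.24 to 1.20. The 3 Corexit 9527 mice had scores of -0.97 to -0.11. The 3 mice given Corexit 9500 had scores of -0.64 to 0.34. Mice of 1 group thus lay on both sides of the saline mice in groups with and without oil.

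Genes of phagocytosis and of the oxidative burst were higher with 9527+oil in the same mice. Of 31 tested, 28 had a log2 fold change above 0 and 11 were higher at an unadjusted p under 0.05, against 3.54% of all genes, with a median of 0.37. Without the members that the neutrophil list also holds (Clec4d and Trem1), 26 of 29 were above 0 and the median was 0.36. The scores were 0.12, -0.18 and 0.04 in saline mice and -0.13, 0.58 and 0.62 in 9527+oil mice, so mouse 16 was within the saline range. In that mouse 15 of the 31 genes lay below all saline mice and 5 above them. The count of 11 became 22 without mouse 16, 4 without mouse 18, 6 without mouse 17, 4 without saline mouse 2 and 6 without saline mouse 3. Marco, the scavenger receptor by which alveolar macrophages bind particles and bacteria, was 1 of the 5. It had 26.4, 17.2 and 12.4 CPM with saline and 69.6, 38.1 and 35.8 CPM with 9527+oil. All treated mice were above all saline mice and mouse 16 was the highest. The log2 fold change was 1.36 ± 0.33, with an adjusted p of 0.885 by the edgeR quasi-likelihood F-test and of 0.00576 in DESeq2. Pirb, an inhibitory receptor of myeloid cells, had 91.0, 71.5 and 84.3 CPM against 100, 160 and 190 CPM (0.86 ± 0.21). Itgam, the integrin CD11b, had 77.1, 45.6 and 57.5 CPM with saline and 72.3, 123 and 146 CPM with 9527+oil (0.92 ± 0.27). Msr1, another scavenger receptor, was at 4.77, 4.41 and 3.79 CPM against 5.09, 9.85 and 8.76 CPM (0.86 ± 0.27). Pirb and Msr1 did not overlap between the groups, and Itgam did because of mouse 16. Cybb, the catalytic subunit of the phagocyte oxidase, stood at 136, 91.4 and 126 CPM with saline and 125, 150 and 149 CPM with 9527+oil (0.26 ± 0.15). Cd36, a fatty acid transporter of endothelium and macrophages, was the member that was lower at an unadjusted p under 0.05 and had no overlap, with 917, 926 and 1116 CPM against 781, 796 and 834 CPM (-0.30 ± 0.11).

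Monocyte and interstitial macrophage markers had a median log2 fold change of 0.42, with 17 of 21 above 0, 6 higher at an unadjusted p under 0.05 (3.54% of all genes) and 6 higher without overlap (5.92% of all genes). Their scores were 0.17, -0.11 and -0.08 in saline mice and 0.30, 0.28 and 0.43 in 9527+oil mice. Here all treated mice were above all saline mice, mouse 16 included. The count of 6 at an unadjusted p under 0.05 became 3 without saline mouse 3, 4 without saline mouse 2 and 2 with all 6 male groups in the fit. C1qa, C1qb and C1qc, the chains of complement C1q made by tissue macrophages, showed this order. C1qb had 39.4, 46.7 and 31.4 CPM with saline and 48.5, 56.8 and 54.7 CPM with 9527+oil (0.44 ± 0.15). Ly6c2, of inflammatory monocytes, had 51.2, 32.9 and 35.3 CPM against 46.4, 66.6 and 80.2 CPM (0.69 ± 0.23), so mouse 16 was among the saline mice. Cx3cr1, of patrolling monocytes, was at 24.8, 19.2 and 22.4 CPM with saline and 25.9, 15.3 and 21.8 CPM with 9527+oil. Its direction changed with single mice left out, and no difference was detectable. Alveolar macrophage markers had a median of 0.04 with 13 of 20 above 0, and the median fell to -0.00078 without mouse 17. Siglecf, the lectin that defines these cells, was at 19.0, 16.1 and 19.1 CPM with saline and 17.7, 19.0 and 18.8 CPM with 9527+oil. Ear2, an eosinophil-associated ribonuclease that alveolar macrophages also express, was lower in every treated mouse, with 71.8, 65.5 and 89.2 CPM against 52.7, 65.4 and 63.3 CPM (-0.32 ± 0.14). The highest treated mouse was barely below the lowest saline mouse in that gene. Genes of this list went both ways, with Marco and Ccl6 higher and Ear2 lower.

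**Figure D3:**
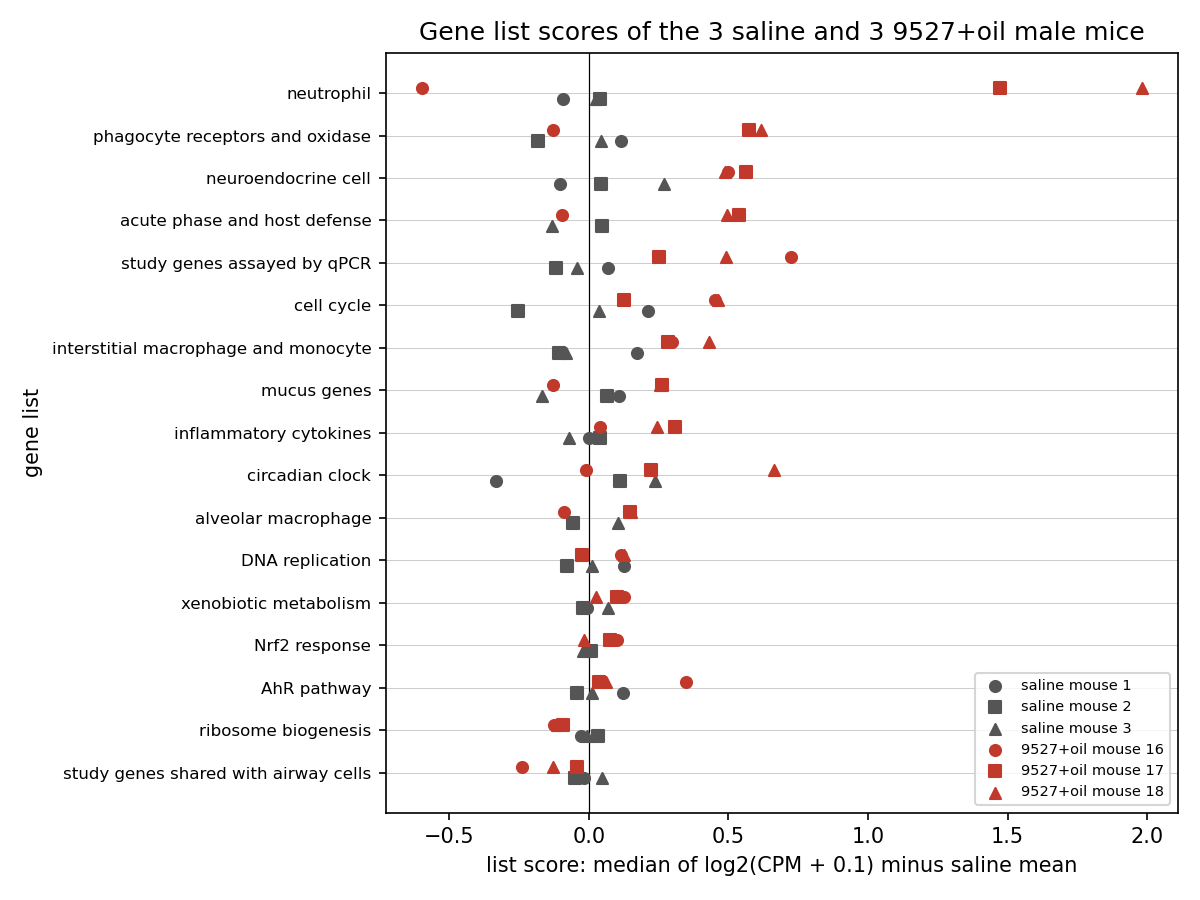
Score of 17 gene lists in each of the 6 male mice, that is the median over the tested genes of a list of log2(CPM + 0.1) minus the mean of the saline mice, with saline mice in grey and 9527+oil mice in red. Mice 17 and 18 stand apart for neutrophil and phagocyte genes, and all 3 treated mice lie on one side of the saline mice for lists that include neuroendocrine, interstitial macrophage and ribosome biogenesis genes.

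Acute phase and host defense genes were above 0 in 22 of 25 cases, with 8 higher and 1 lower at an unadjusted p under 0.05, against 3.54% and 2% of all genes, and a median log2 fold change of 0.22. Of these, 5 are also neutrophil markers, and without them 18 of 20 were above 0 with a median of 0.20 and 4 higher at an unadjusted p under 0.05. Over the whole list the count of 8 higher became 3 without mouse 18, 5 without mouse 17, 4 without saline mouse 3 and 12 without mouse 16, and the median was then between 0.14 and 0.53. Lcn2, lipocalin 2, which withholds iron from bacteria, had 139, 150 and 126 CPM with saline and 167, 320 and 257 CPM with 9527+oil (0.84 ± 0.21). The groups did not overlap and mouse 16 was nearest to the saline mice. Serpina3n, a protease inhibitor of the acute phase, had 176, 185 and 144 CPM against 178, 249 and 252 CPM (0.42 ± 0.16). Saa3, a serum amyloid A protein, was at 5.27, 0.892 and 1.72 CPM with saline and 1.83, 9.19 and 10.5 CPM with 9527+oil, with mouse 16 again in the saline range. Inflammatory cytokines and their receptors were above 0 in 26 of 33 cases with a median of 0.15. Il17ra, the receptor subunit for interleukin 17, had 25.1, 23.7 and 27.1 CPM with saline and 33.8, 33.9 and 35.1 CPM with 9527+oil (0.43 ± 0.10). The treated mice were close together and all above the saline mice. Il1rn, the antagonist of interleukin 1, had 14.4, 10.1 and 15.1 CPM against 18.7, 22.004 and 25.6 CPM (0.74 ± 0.19), also without overlap. Il1b itself was at 22.4, 16.7 and 18.0 CPM with saline and 10.7, 56.4 and 69.7 CPM with 9527+oil (1.25 ± 0.54), the order of the neutrophil genes. Tnf was low, with 1.29, 2.68 and 1.45 CPM against 3.22, 2.15 and 3.64 CPM (0.74 ± 0.37).

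Mucus genes had a median log2 fold change of 0.18 with 10 of 13 above 0, and the median was 0.0056 without mouse 18, 0.08 without saline mouse 3 and 0.33 without saline mouse 2. The gel-forming airway mucins and the membrane mucin Muc4 were higher without overlap. Muc5ac had 5.67, 6.25 and 6.64 CPM with saline and 9.61, 7.48 and 23.1 CPM with 9527+oil (1.12 ± 0.39). Muc5b had 229, 282 and 289 CPM against 295, 378 and 581 CPM (0.64 ± 0.23). Muc4 had 102, 99.3 and 84.2 CPM against 133, 111 and 108 CPM (0.30 ± 0.12). Mouse 18 was the highest for the gel-forming mucins and mouse 16 for Muc4. The genes whose level followed Muc5ac most closely over the 18 male mice were Retnla (r = 0.92), a secreted protein of type 2 inflammation, and Clca3 (r = 0.92), a product of goblet cells. Retnla had 29.4, 23.6 and 32.6 CPM with saline and 18.9, 55.8 and 152 CPM with 9527+oil (1.40 ± 0.60). Clca3 had 14.4, 12.9 and 20.1 CPM against 4.52, 15.1 and 133 CPM. Mouse 18 alone stood high for Clca3, so its value in that mouse was unlike that of its group.

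The AhR target Cyp1a1 was high in mouse 16 and at the saline level in the other treated mice. Its promoter and that of Cyp1b1, the classical targets of the receptor, are shown because their levels follow. A wider search, for the first of them and the genes most like it, stands at the end of the paragraph. They are the 250 bases before the start of each gene by RefSeq on GRCm38.p6, at chr9:57697363-57697612 on the plus strand for Cyp1a1 and chr17:79715062-79715311 on the minus strand for Cyp1b1. The capitals mark GCGTG, the core that the receptor binds with its partner Arnt, or CACGC, the same core on the other strand.
Cyp1a1: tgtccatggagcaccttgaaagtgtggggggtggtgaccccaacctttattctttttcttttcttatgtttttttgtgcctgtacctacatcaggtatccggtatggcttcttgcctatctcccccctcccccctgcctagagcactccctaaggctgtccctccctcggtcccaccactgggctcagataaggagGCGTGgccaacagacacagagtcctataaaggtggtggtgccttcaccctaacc
Cyp1b1: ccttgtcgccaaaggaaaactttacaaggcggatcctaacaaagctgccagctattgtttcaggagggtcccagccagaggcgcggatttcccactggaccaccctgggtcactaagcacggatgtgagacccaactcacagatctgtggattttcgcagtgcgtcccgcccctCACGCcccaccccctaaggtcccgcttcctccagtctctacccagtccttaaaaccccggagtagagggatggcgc
Cyp1a1 had 28.6, 27.2 and 21.0 CPM with saline and 219, 19.97 and 21.1 CPM with 9527+oil. Mouse 16 was many times above every saline mouse, and mice 17 and 18 were at about the level of the lowest saline mouse. The log2 fold change of the group was 1.76 ± 0.85 (adjusted p 0.885 by the edgeR quasi-likelihood F-test) and -0.32 without mouse 16, so 1 mouse set its direction. Cyp1b1, which also oxidizes aromatic hydrocarbons, had 15.4, 11.3 and 10.7 CPM with saline and 29.5, 13.2 and 13.2 CPM with 9527+oil (0.58 ± 0.32). Ces1g, a carboxylesterase, had 5.22, 3.94 and 5.46 CPM against 38.5, 6.88 and 7.16 CPM (1.84 ± 0.64), without overlap. Nqo1, a quinone reductase under AhR and Nrf2, had 6.02, 5.25 and 5.33 CPM against 13.5, 5.39 and 4.11 CPM, and its direction turned without mouse 16, to -0.23. Ugt1a6a, which conjugates phenols to glucuronic acid, had 55.9, 57.4 and 58.8 CPM with saline and 97.0, 67.1 and 53.9 CPM with 9527+oil. For all 5 genes mouse 16 was the highest of the 6 mice. The AhR repressor Ahrr, at 0.497, 0.367 and 0.406 CPM with saline and 0.565, 0.440 and 0.548 CPM with 9527+oil, and Tiparp, at 33.2, 32.7 and 33.4 CPM against 34.6, 33.4 and 40.4 CPM, were not raised in that mouse in the same way. Over the list 8 of 11 AhR genes were above 0 with a median log2 fold change of 0.29, and 0 passed an unadjusted p of 0.05 by the edgeR quasi-likelihood F-test. The median was 0.06 without mouse 16. The count of 0 became 2 higher without mouse 17, 3 higher without mouse 18, and 1 higher and 1 lower without mouse 16. Among the other 12 male mice, 1 Corexit 9527 mouse, mouse 12, had 264 CPM of Cyp1a1, and the other 11 had 8.99 to 26.1 CPM, none of them above the highest saline mouse. The genes closest to Cyp1a1 over the 18 male mice were Ces1f (r = 0.93), Fbln2 (r = 0.89), Ces1b (r = 0.87), Cbr3 (r = 0.87) and Gclm (r = 0.86). Ces1f, another carboxylesterase, had 7.26, 9.97 and 7.00 CPM with saline and 36.0, 10.9 and 9.31 CPM with 9527+oil. GCGTG was searched on both strands of the promoters of Cyp1a1 and the 8 genes closest to it. A promoter sequence was found for 8 of these 9 genes, and Cyp1a1, Gclm and Entpd5 held the core (3 of 8, 37.5%), against 30.9% of 27025 genes, so the core was about as frequent as elsewhere. A match is a description and not a binding site.

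Other genes of xenobiotic metabolism and of the Nrf2 response, which answers oxidants and electrophiles, had small median differences, with some members higher. Xenobiotic genes were above 0 in 23 of 36 cases with a median log2 fold change of 0.07. Of them 8 were higher and 0 lower at an unadjusted p under 0.05 by the edgeR quasi-likelihood F-test, where 3.54% of all genes were higher, and 7 were higher without overlap, where 5.92% of all genes were. The count of 8 became 4 without saline mouse 1, 3 without saline mouse 2, 4 without saline mouse 3, 4 without mouse 16 and 5 without mouse 18. Cyp2e1, a cytochrome P450 of small organic solvents, had 9.90, 13.3 and 14.0 CPM with saline and 18.1, 17.2 and 15.9 CPM with 9527+oil (0.46 ± 0.16). Por, the reductase that supplies electrons to these enzymes, had 409, 460 and 463 CPM against 549, 489 and 588 CPM (0.28 ± 0.11). Neither gene overlapped between the groups, and the differences were spread over all treated mice. Nrf2 genes had a median of 0.07 with 22 of 32 above 0, 4 higher at an unadjusted p under 0.05 (3.54% of all genes) and 5 higher without overlap (5.92% of all genes). The count of 4 became 2 without saline mouse 3, 2 without mouse 17 and 2 without mouse 18. Slc7a11, the cystine carrier for glutathione synthesis, had 3.03, 2.10 and 2.71 CPM with saline and 7.53, 3.85 and 5.71 CPM with 9527+oil (1.12 ± 0.30). Hmox1, heme oxygenase 1, had 37.6, 40.5 and 35.4 CPM against 45.3, 48.1 and 43.0 CPM (0.26 ± 0.10). Both were higher in every treated mouse.

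Cell cycle genes had a median log2 fold change of 0.32, with 50 of 57 above 0, 9 higher at an unadjusted p under 0.05 and 16 higher without overlap, where 3.54% and 5.92% of all genes were. The scores were 0.21, -0.25 and 0.04 in saline mice and 0.45, 0.13 and 0.46 in 9527+oil mice. Treated mouse 17 was below saline mouse 1, so the scores of the groups overlapped. Without saline mouse 2, the lowest, 42 of 57 genes were above 0, the median was 0.23 and 0 genes passed an unadjusted p of 0.05 by the edgeR quasi-likelihood F-test. Without saline mouse 1, the highest, 53 were above 0, the median was 0.47 and 11 passed it. Of the list 3 genes passed it without saline mouse 3, 1 without 9527+oil mouse 16, 2 without mouse 18 and 14 without mouse 17. Over all genes 332 of 15111 (without saline mouse 3) to 624 of 15109 (without mouse 16) were higher at that p in these fits. Top2a, the topoisomerase of dividing cells, had 19.1, 10.7 and 13.9 CPM with saline and 22.5, 19.3 and 21.8 CPM with 9527+oil (0.54 ± 0.20). Ckap2l, a spindle protein, had 5.07, 3.73 and 5.33 CPM against 13.4, 6.00 and 7.32 CPM (0.92 ± 0.32). Cdc20, which activates the anaphase-promoting complex, had 4.23, 3.41 and 3.75 CPM against 7.18, 5.23 and 5.24 CPM (0.63 ± 0.23). These genes did not overlap between the groups. Mki67, the proliferation marker Ki-67, was at 42.4, 26.1 and 37.6 CPM with saline and 57.9, 34.8 and 52.6 CPM with 9527+oil (0.45 ± 0.23), where mouse 17 lay among the saline mice. DNA replication genes had a median of 0.07 with 32 of 45 above 0 and 0 at an unadjusted p under 0.05 by the edgeR quasi-likelihood F-test. The list of 11 DNA damage and repair genes assayed by PCR was above 0 in 10 cases, with a median of 0.37 and scores of 0.72, 0.25 and 0.49 in 9527+oil mice against 0.07, -0.12 and -0.04 with saline. Those genes were picked by the study's authors on mice of this series, so their direction is not independent evidence. Chek1, the checkpoint kinase of stalled replication forks, had 0.995, 1.26 and 1.17 CPM with saline and 2.87, 1.82 and 2.03 CPM with 9527+oil (0.97 ± 0.33). The list of genes shared with airway cells exposed to 9527+oil, likewise picked on these mice, holds genes of both directions by its choice, so its median of -0.18 is not read as a shift. Of its 9 genes Csf3r (1.54), Tmem150c (0.38) and Prss23 (0.38) had a log2 fold change above 0 and the other 6 were between -0.29 and -0.16.

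The 15 named genes with a symbol that were lower in every 9527+oil mouse had log2 fold changes from -0.36 to -1.87. Hspa13, a heat shock protein 70 relative of the endoplasmic reticulum, had 39.5, 42.3 and 41.6 CPM with saline and 29.0, 29.98 and 30.7 CPM with 9527+oil (-0.46 ± 0.09). Wdr75, a factor of ribosomal RNA processing, had 26.1, 28.8 and 30.2 CPM against 19.3, 18.9 and 20.7 CPM (-0.53 ± 0.11). Cnot1, the scaffold of the deadenylase complex that shortens messenger RNA tails, had 111, 117 and 111 CPM against 78.3, 83.3 and 90.8 CPM (-0.43 ± 0.09). In these genes the mice of a group lay close together and the groups were apart. Ptcd3, of the mitochondrial ribosome, had 19.7, 20.2 and 20.8 CPM with saline and 13.6, 14.9 and 13.9 CPM with 9527+oil (-0.52 ± 0.11). Bmi1, a Polycomb protein of stem cells, had 62.9, 67.8 and 65.1 CPM against 51.6, 50.4 and 49.97 CPM (-0.37 ± 0.09). Farsb, a subunit of phenylalanyl-tRNA synthetase, had 27.6, 28.2 and 31.2 CPM against 22.3, 21.8 and 22.9 CPM (-0.38 ± 0.10). Primpol, a primase that restarts replication forks, differed most, with 13.5, 7.24 and 12.8 CPM against 3.39, 1.38 and 4.34 CPM (-1.87 ± 0.40), and 15.9% of its words of 31 bases occur in other genes. The list of 15 was completed by Pak4 (-0.54 ± 0.13), Btg3 (-0.45 ± 0.11), Ppp2r5e (-0.53 ± 0.13), Snx13 (-0.36 ± 0.10), Snx6 (-0.38 ± 0.10), Hsd17b7 (-0.55 ± 0.15), an enzyme of cholesterol synthesis, and the platelet genes Tubb1 and Alox12. All 15 had an adjusted p of 0.885 by the edgeR quasi-likelihood F-test.

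Genes of ribosome biogenesis shared the direction of Wdr75. Of 58 tested, 47 had a log2 fold change below 0, with a median of -0.13, and 13 were lower in all treated mice than in all saline mice, where 5.91% of all genes were. The scores were -0.03, 0.03 and -0.01 in saline mice and -0.13, -0.09 and -0.11 in 9527+oil mice. The treated mice were close together and all below the saline mice, and 2 genes were lower at an unadjusted p under 0.05, a share near the 2% of all genes. The count of 2 became 5 without mouse 16, where 359 of all 15109 genes were lower, and 5 with all 6 male groups in the fit. The 9500+oil mice, at -0.14 to -0.07, were also below all saline mice. Oil mice ran from -0.11 to 0.01 and Corexit 9527 mice from -0.02 to 0.23. Lsg1, a factor in the export of the large ribosomal subunit, had 29.7, 32.7 and 31.2 CPM with saline and 23.9, 27.2 and 23.8 CPM with 9527+oil (-0.33 ± 0.11). With any mouse left out the median of the list ran from -0.13 to -0.10. Some genes of platelets were also lower in every treated mouse. Tubb1, the tubulin of platelets, had 18.3, 13.8 and 13.1 CPM with saline and 6.70, 9.85 and 9.66 CPM with 9527+oil (-0.79 ± 0.20). Alox12, the platelet lipoxygenase, had 19.0, 20.8 and 15.7 CPM against 8.79, 10.4 and 14.1 CPM (-0.74 ± 0.20). Ppbp, a chemokine of platelet granules, had 16.3, 16.9 and 19.5 CPM against 5.09, 8.14 and 14.6 CPM (-0.92 ± 0.33), and Itga2b, the platelet integrin, had 22.8, 16.5 and 15.7 CPM against 7.44, 13.5 and 14.8 CPM (-0.63 ± 0.26). Mouse 16 was the lowest for each of these, and Pf4, platelet factor 4, did not follow, with 6.17, 6.98 and 5.92 CPM against 4.92, 6.16 and 7.04 CPM. The list of erythroid and platelet genes had a median of -0.08 with 11 of 19 below 0. Heat shock proteins were below 0 in 19 of 21 cases with a median of -0.22, and a single saline mouse stood high for them. Hspa1b, an inducible heat shock protein 70, was at 11.1, 234 and 20.5 CPM with saline and 11.0, 26.3 and 39.2 CPM with 9527+oil, and its log2 fold change turned from -1.79 to 0.68 without saline mouse 2.

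Clock genes varied between mice of the same group. Dbp, a transcription factor that follows the day, had 7.56, 21.2 and 30.6 CPM with saline and 62.6, 48.2 and 79.6 CPM with 9527+oil (1.68 ± 0.42). All treated mice were above all saline mice, and saline mouse 1 was far below the rest. Per3 had 27.8, 43.8 and 66.3 CPM with saline and 60.1, 65.1 and 95.003 CPM with 9527+oil (0.67 ± 0.30), with overlap. Arntl, which peaks in the opposite phase, had 24.9, 14.2 and 12.1 CPM against 14.1, 13.1 and 3.01 CPM (-0.77 ± 0.51). Over the list 14 of 22 genes were above 0 with a median log2 fold change of 0.36, and 1 of them, Dbp, was higher without overlap, a share near the 5.92% of all genes. The scores were -0.33, 0.11 and 0.24 with saline and -0.01, 0.22 and 0.66 with 9527+oil, and the median was 0.13 without saline mouse 1 and 0.13 without 9527+oil mouse 18. In every male group the first-numbered mouse had the lowest score. It was -0.28 with oil, -0.32 with Corexit 9500, -0.13 with Corexit 9527 and 0.11 with 9500+oil. Scores rose with mouse number in the saline, oil, Corexit 9500 and 9527+oil mice, and not in the other groups. The hour at which each mouse was killed is not given in the sources used here, and its part in these values was not tested. The genes closest to Dbp over the 18 male mice were Nr1d1 (r = 0.93), Per3 (r = 0.92), Bhlhe41 (r = 0.92) and Tef (r = 0.90), all of them genes of the clock or its output. The E-box CACGTG, which the clock factors Clock and Arntl bind, was searched on both strands in the 250 bases before the start of Dbp and of the 8 genes closest to it. It was found in 3 of 9, Bhlhe41, Tef and Eef2k (33.3%), against 6.86% of 27025 genes. The promoters of Bhlhe41 (chr6:145865421-145865670, minus strand) and Tef (chr15:81802423-81802672, plus strand) are shown as examples, with the E-box in capitals (RefSeq, GRCm38.p6).
Bhlhe41: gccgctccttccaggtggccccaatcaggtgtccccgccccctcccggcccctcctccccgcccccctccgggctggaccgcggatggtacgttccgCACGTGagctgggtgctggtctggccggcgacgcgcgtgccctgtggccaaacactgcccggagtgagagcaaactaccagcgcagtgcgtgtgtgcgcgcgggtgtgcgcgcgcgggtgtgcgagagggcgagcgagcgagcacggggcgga
Tef: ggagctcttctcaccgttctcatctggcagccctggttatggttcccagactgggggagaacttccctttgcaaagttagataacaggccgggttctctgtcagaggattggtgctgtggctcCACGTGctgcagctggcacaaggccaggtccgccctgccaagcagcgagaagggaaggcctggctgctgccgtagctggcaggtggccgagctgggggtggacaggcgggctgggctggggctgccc
The match lies 153 bases before the start of Bhlhe41 and 127 bases before that of Tef. Bhlhe41, a repressor of the clock, had 9.60, 13.2 and 19.1 CPM with saline and 27.3, 14.9 and 22.5 CPM with 9527+oil, and Tef, a relative of Dbp, had 118, 176 and 232 CPM against 190, 234 and 328 CPM. Both overlapped between the groups.

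Markers of pulmonary neuroendocrine cells, the rare sensory cells of the airway, were above 0 in 9 of 9 cases with a median log2 fold change of 0.51. Of these, 4 were higher without overlap, against 5.92% of all genes, and 2 were higher at an unadjusted p under 0.05, against 3.54%. The count of 2 became 1 without saline mouse 1, 1 without mouse 16, 1 without mouse 17 and 3 without saline mouse 3. The scores were -0.10, 0.04 and 0.27 in saline mice and 0.50, 0.56 and 0.49 in 9527+oil mice, which did not overlap. They ran from 0.20 to 0.67 in 9500+oil mice, 0.22 to 0.55 in Corexit 9500 mice and 0.03 to 0.49 in Corexit 9527 mice. Oil mice had -0.01 to 0.23. High scores were thus not particular to 9527+oil. Levels were low throughout. Chgb, a granule protein, had 0.497, 0.525 and 0.497 CPM with saline and 1.26, 1.54 and 0.978 CPM with 9527+oil (1.30 ± 0.39). Syp, a protein of synaptic vesicles, had 7.76, 8.24 and 7.23 CPM against 11.0, 9.96 and 9.51 CPM (0.39 ± 0.15). Calca, their peptide CGRP, was near 0 in all mice, with 0, 0.420 and 0.632 CPM against 0.391, 0.770 and 0.548 CPM, and its groups overlapped. The lists of 6 structural cell types, alveolar type 1 and type 2, club and ciliated cells, fibroblasts, and smooth muscle with pericytes, had medians between -0.05 and 0.09, while the medians of endothelium (-0.13) and basal cells (-0.10) were lower. Of the 143 genes of the 6 lists, 8 passed an unadjusted p of 0.05 and 16 did not overlap between the groups, where 5.54% of all genes passed and 5.92% and 5.91% were higher and lower without overlap.

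The 9527+oil mice were next set against the male mice given oil or Corexit 9527 alone, in 1 fit of the 4 groups. These contrasts test the difference itself, whereas values against saline share the saline mice and are given side by side. Oil and dispersant were mixed in the same parts alone and together, but of oil alone the saline phase was used, so the amounts of oil delivered may differ. Against oil, 0 genes passed an adjusted p of 0.05 by the edgeR quasi-likelihood F-test, with 197 higher (1.29%) and 266 lower (1.74%) at an unadjusted p under 0.05 and 8 genes by DESeq2. Against Corexit 9527, 25 of 15305 genes passed by the edgeR quasi-likelihood F-test, of which 2 were higher (0.0131%) and 23 lower (0.15%) in 9527+oil mice. This count was 401 with DESeq2, and with single mice left out it ran from 0 without 9527+oil mouse 17 and 0 without Corexit 9527 mouse 10 to 263 without Corexit 9527 mouse 12. Among the 25 genes, Sprr1a, an envelope protein of injured airway epithelium, showed the largest difference after Gm13835. It had 32.8, 45.9 and 17.2 CPM in Corexit 9527 mice and 2.04, 1.27 and 0.470 CPM in 9527+oil mice, with 1.39, 1.47 and 1.31 CPM in saline mice. The 9527+oil mice were thus at the saline level and the Corexit 9527 mice many times above it (log2 fold change -4.68 ± 0.52, adjusted p 0.00929). Mal, a protein of apical membranes, had 60.8, 63.9 and 59.4 CPM with Corexit 9527 and 33.5, 32.3 and 27.8 CPM with 9527+oil (-0.98 ± 0.11, adjusted p 0.00929 by the edgeR quasi-likelihood F-test). Mmp12, the macrophage elastase, had 25.3, 61.2 and 26.6 CPM against 6.44, 9.79 and 7.00 CPM (-2.30 ± 0.35). Tnc, the matrix protein tenascin C of wound repair, had 123, 442 and 85.4 CPM against 25.4, 40.9 and 24.6 CPM (-2.85 ± 0.49). Col3a1, a fibrillar collagen, had 1342, 1364 and 1436 CPM against 905, 916 and 770 CPM (-0.68 ± 0.09). Spp1 (-1.34 ± 0.19), Krt18 (-0.996 ± 0.15), Lrp2 (-0.96 ± 0.13) and F7 (-0.98 ± 0.13) were also lower, and Colq was higher, with 18.7, 19.8 and 20.5 CPM against 52.7, 37.0 and 37.3 CPM (1.10 ± 0.16). All of these genes had 9527+oil mice near the saline level, and saline and 9527+oil mice overlapped.

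The cell cycle score was 0.88 to 1.84 in the 3 Corexit 9527 mice, 0.33 to 0.96 in the 3 oil mice and 0.13 to 0.46 in the 3 9527+oil mice, with -0.25 to 0.21 in saline mice. Every 9527+oil mouse was below every Corexit 9527 mouse. For the genes assayed by PCR the ranges were 1.24 to 2.51, 0.51 to 1.24, 0.25 to 0.72 and -0.12 to 0.07, but these genes were picked for their rise in the same Corexit 9527 mice, so their lower scores with 9527+oil are a description only. Against Corexit 9527, 0 of the 57 cell cycle genes had a log2 fold change above 0, the median was -1.14, 54 were lower at an unadjusted p under 0.05, where 7.68% of all genes were, and 1 passed the adjusted threshold by the edgeR quasi-likelihood F-test. Of the 45 DNA replication genes 33 were lower at an unadjusted p under 0.05, with a median of -0.71. Neutrophil genes went the other way, with a median of 1.76 against Corexit 9527 and 14 of 20 higher at an unadjusted p under 0.05, where 5.54% of all genes were. For this list the scores of 9527+oil mouse 16 (-0.60) and of the Corexit 9527 mice overlapped.

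**Figure D4:**
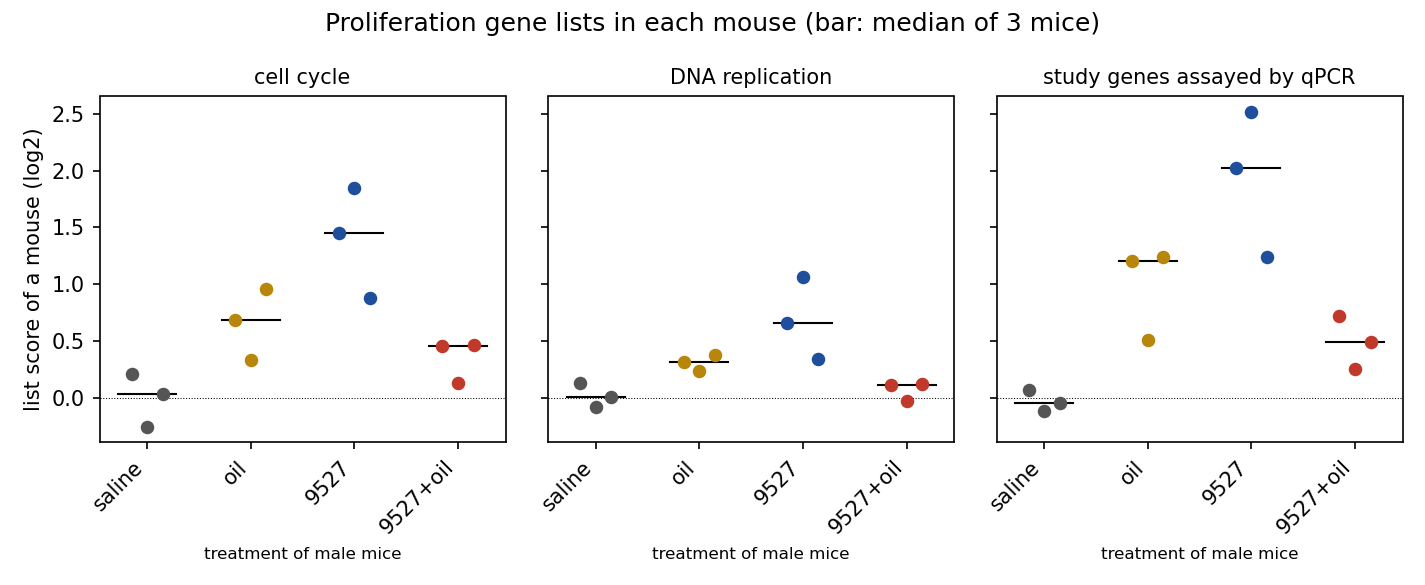
Score of the cell cycle genes, the DNA replication genes and the genes assayed by PCR in each male mouse given saline, oil, Corexit 9527 or 9527+oil, on a log2 scale against the mean of the saline mice, with a bar at the median of 3 mice. Every 9527+oil mouse lies below every Corexit 9527 mouse, which for the genes assayed by PCR was favoured by their choice on those mice, and for cell cycle and DNA replication genes the 9527+oil and saline mice overlap.

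Whether 9527+oil equalled the sum of its parts was tested as the difference between its change from saline and the sum of the changes with oil and with Corexit 9527, on the log2 scale. By the edgeR quasi-likelihood F-test 47 genes departed from the sum, of which 40 were below it (0.261%) and 7 above it (0.0457%), and DESeq2 gave 438. With single mice left out the count ran from 0, as without saline mouse 1, to 220 without Corexit 9527 mouse 12. F7, coagulation factor VII, had 15.2, 17.9 and 16.4 CPM with saline, 25.8, 21.8 and 27.6 CPM with oil, 27.0, 33.2 and 31.1 CPM with Corexit 9527, and 13.9, 17.55 and 15.2 CPM with 9527+oil. Each agent alone stood above saline and the mixture did not, and the departure was -1.58 ± 0.19 (adjusted p 0.0247 by the edgeR quasi-likelihood F-test). Muc1, a membrane mucin, was at 450, 499 and 501 CPM with saline, 667, 609 and 750 CPM with oil, 834, 869 and 840 CPM with Corexit 9527 and 602, 529 and 514 CPM with 9527+oil (-1.11 ± 0.14). Itgax, the integrin CD11c of alveolar macrophages and dendritic cells, was at 86.9, 89.9 and 93.3 CPM, 152, 127 and 150 CPM, 119, 150 and 129 CPM, and 91.0, 106 and 105 CPM in the same order (-1.07 ± 0.15). In both genes the mixture was closest to saline. Lcn2 departed by -2.16 ± 0.35, since oil mice had 480, 320 and 543 CPM and Corexit 9527 mice 265, 432 and 329 CPM, against 167, 320 and 257 CPM with the mixture. Cd68 (-1.28 ± 0.23), Clec4n (-1.68 ± 0.24), a lectin of macrophages, Timp1 (-3.59 ± 0.66), an inhibitor of metalloproteinases, Cxcl9 (-3.50 ± 0.64), a chemokine for T cells, and Uhrf1 (-2.70 ± 0.48), which maintains DNA methylation in dividing cells, were likewise below the sum. Uhrf1 is among the genes assayed by PCR, picked for their rise in the same Corexit 9527 mice, so its departure is a description only. The median departure was -1.97 over the cell cycle genes, of which 56 of 57 were below the sum at an unadjusted p under 0.05 and 6 passed the adjusted threshold by the edgeR quasi-likelihood F-test, and -1.04 over the DNA replication genes. Prg4 was below the sum (-0.95 ± 0.40) at an unadjusted p of 0.0348 and missed the adjusted threshold (adjusted p 0.372), with 14.0, 11.9 and 11.0 CPM in oil mice and 4.81, 8.33 and 5.17 CPM in Corexit 9527 mice. The neutrophil list had a median departure of 0.79 with 1 gene above and 2 below the sum at an unadjusted p under 0.05, where 5.03% and 6.98% of all genes were.

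Female mice received the same fractions, and their counts are in a table of their own. Among the 3 female mice treated with 9527+oil and the 3 given saline, no gene passed an adjusted p of 0.05 by the edgeR quasi-likelihood F-test, with 164 at an unadjusted p under 0.05. Female saline mouse 3 stood apart, with 45.1% of its counts on mitochondrial genes against 6.16% and 7.39% in the other female saline mice, and without it 2 genes passed and 1865 had an unadjusted p under 0.05. The difference between the sexes in the change with 9527+oil was tested for 15417 genes. It gave 0 genes at an adjusted p of 0.05 by the edgeR quasi-likelihood F-test, 13 by DESeq2, and at an unadjusted p under 0.05 a more positive change in males for 328 genes (2.13%) and a more negative one for 40 (0.259%). These counts rested on single mice, with 1125 and 177 genes when the first female saline mouse was left out, 1194 and 253 for the second, 654 and 397 for the third, 248 and 47 without male 9527+oil mouse 16, and 153 to 208 and 22 to 50 without any one of the other 8 mice. Without female saline mouse 3, 1 gene passed the adjusted threshold. Of the 530 genes higher in males at an unadjusted p under 0.05, 519 were tested in females and 67.8% had the same direction, where 56.5% of all genes did, and without female saline mouse 3 these shares were 57.1% and 55.6%. For the genes lower in males the share was 65.5%, and 67.1% without female saline mouse 3. Of the 15 named genes higher in males, 8 were higher in females and 10 were without female saline mouse 3, and of the 15 lower ones 12 and 11 were lower. Prg4 had 11.7, 8.46 and 135 CPM in female saline mice and 40.02, 42.6 and 7.92 CPM with 9527+oil. The high saline value was that of mouse 3 and the lowest value of all that of treated mouse 18. Csf3r had 61.5, 64.0 and 12.5 CPM with saline and 77.8, 82.1 and 54.3 CPM with 9527+oil in females. Their neutrophil list had a median log2 fold change of -0.09, and -0.05 without saline mouse 3. Lcn2, higher in treated males, had 159, 299 and 190 CPM in female saline mice and 103, 103 and 130 CPM in treated females, so the treated females were all below the female controls. Cyp1a1 had 3.78, 1.18 and 3.40 CPM with saline and 61.0, 4.96 and 8.69 CPM with 9527+oil in females. All treated females were above all female saline mice, which was not so in males, and a single treated female stood far above the rest.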

How the data were processed

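Gene levels were measured by stranded, paired-end mRNA sequencing of the left lung. The deposited values were expected counts that the authors estimated with Salmon on GRCm38 transcripts. They are given per gene as whole numbers, in 1 table per sex with 18295 male and 18120 female gene rows. Versions of Salmon are not given in the sources used here. Each row of the deposited tables summed to at least 10 counts, 4 rows with a repeated name were left out (0.0128% of the male counts), and 24 row names of the male table are dates. The 6 libraries compared held about 18121500 to 25889200 counts, and intervals cover counting error only.

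From these counts the male 9527+oil and saline mice, 3 each, were compared with edgeR 4.0.16 in R 4.3.3 (TMM scaling, filterByExpr, quasi-likelihood F-test, Benjamini-Hochberg adjustment over all genes tested). The same test served the 4-group fit behind the contrasts with oil, with Corexit 9527 and with their sum, and the sex by treatment interaction over the genes in both tables. The Wald test of DESeq2 (1.42.0), the package the study used for single genes, was an alternative. Others were other scalings, filters, groups in the fit and each mouse left out. The error after ± is the standard error of a log2 fold change, or the SD where stated. Scripts were tested on simulated counts.

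Gene lists and the genes compared were chosen with earlier results of these data known. Named were the 15 higher and 15 lower genes with the smallest p among those without overlap between the groups, a log2 CPM averaging 1 or more and a symbol, every gene past the adjusted threshold, the defining members of each list with its up to 5 smallest p, both lists of the study, up to 8 genes of each contrast, and the 8 genes that correlated best with a gene singled out. Psma3, Gm6851 and Pin4 were named after their values were seen. Shared words of 31 bases were counted in GENCODE transcripts, and promoters are those of RefSeq. Whether the 3 mice of a group came from separate cages or litters is not stated in the labels. Mouse numbers served only as names in the main fits. In every male group the first-numbered mouse had the lowest clock score, and an order of mice within the groups was not modelled. Male and female values come from tables made separately.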

Additional observations from a re-analysis of the deposited data

How the results depend on the processing

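The number of genes past the adjusted threshold between 9527+oil and saline males was 1, and it became 25 with DESeq2, 0 with at least 10 counts in every mouse, 0 with all 6 male groups in 1 fit, and 0 to 54 with a mouse left out. Against Corexit 9527 the count of 25 became 401 with DESeq2, 71 with all 6 male groups, 2 with the 2 groups compared only, and 0 to 263 with a mouse left out. Against oil the count of 0 became 8 with DESeq2 and was 0 to 0 with a mouse left out. For the departure from the sum the count of 47 became 438 with DESeq2, 101 with at least 10 counts in every mouse, 168 with all 6 male groups, and 0 to 220 with a mouse left out. For the difference between the sexes the count of 0 became 13 with DESeq2, and 0 to 1 with a mouse left out, and a replicate block on mouse number left it at 0 and moved the higher and lower counts at an unadjusted p under 0.05 from 328 and 40 to 117 and 39. The numbers were taken as names only in the main fit, by choice and not from a test. The correlation of deviations between male and female mice of the same number was 0.19 to 0.45 for 5 numbers and -0.29 for mouse 17. Whether mice of the same number share a batch was not tested. The cause of these shifts was not tested. Upper-quartile scaling moved the median over all genes from -0.0037 to -0.0156 for the males against saline and from -0.069 to -0.0019 for the difference between the sexes. Over 128 results for single genes with 1745 alternative values, 1530 kept their direction and side of the threshold, 54 moved past it, 154 fell short of it and 7 turned in sign.

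Median log2 fold changes of lists with a mouse left out ran from 0.82 to 1.75 for neutrophil genes, 0.26 to 0.55 for phagocyte genes, 0.30 to 0.45 for interstitial macrophages and monocytes, -0.00078 to 0.12 for alveolar macrophages, 0.14 to 0.53 for acute phase genes, 0.10 to 0.23 for cytokines, 0.0056 to 0.33 for mucus genes, 0.060 to 0.38 for AhR genes, 0.03 to 0.10 for xenobiotic and 0.01 to 0.10 for Nrf2 genes. They ran from 0.23 to 0.47 for the cell cycle, 0.02 to 0.12 for DNA replication, 0.29 to 0.50 for the genes assayed by PCR, -0.23 to -0.09 for the genes shared with airway cells, -0.13 to -0.10 for ribosome biogenesis, 0.13 to 0.41 for the clock and 0.39 to 0.58 for neuroendocrine cells, where at least 10 counts in every mouse gave 0.46. With single mice left out the log2 fold change ran from -0.23 to 0.049 for Psma3, -0.26 to 0.11 for Cx3cr1, which was also 0.02 without saline mouse 1, -0.045 to 0.076 for Siglecf, -0.32 to 2.23 for Cyp1a1, -0.23 to 0.78 for Nqo1 and -2.31 to 0.68 for Hspa1b.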

Other observations

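Lymphocyte genes differed between mice of the same group. The B cell score was 0.68, -0.68 and -0.01 in saline mice and 0.55, -0.43 and -0.35 in 9527+oil mice, and the score of immunoglobulin genes was 0.55, -0.50 and -0.07 against 0.54, -0.13 and -0.39. Saline mouse 1 and 9527+oil mouse 16 were the highest in both. They were also the highest for T cell genes, with scores of 0.26, -0.34 and 0.07 against 0.18, -0.26 and -0.13. Heart muscle genes, markers of tissue beside the lung, had scores of -0.11, 0.32 and -0.19 in saline mice and 0.30, -0.54 and 0.15 in treated mice, which overlapped.

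Glucocorticoid-responsive genes had a log2 fold change above 0 in 19 of 21 cases with a median of 0.19, and the scores were -0.20, 0.07 and 0.22 with saline and -0.22, 0.40 and 0.50 with 9527+oil. Mice 17 and 18 were above the saline mice and mouse 16 was below them, the order of the neutrophil genes. Interferon-induced genes were above 0 in 38 of 48 cases and genes of cathepsins and the lysosome in 30 of 36, both with a median of 0.11. Endothelial genes were below 0 in 26 of 35 cases with a median of -0.13, genes of cholesterol synthesis in 19 of 23 with a median of -0.14, and adipocyte genes in 9 of 12 with a median of -0.24. Over all genes tested 49.4% were above 0, with a median of -0.0037.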
